A study of Glycine max with 12 samples.

Results

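DnaJ proteins, also called HSP40 or J proteins, are the co-chaperones that bring unfolded proteins to HSP70. The genes described here are the 193 table entries of 30498 whose description names DnaJ, after leaving out the 5 genes matched to the Arabidopsis ER proteins ERdj3A and ERdj3B. They match 85 Arabidopsis loci, and no identifier among them stood on several entries. The set is not wholly outside the ER, since 2 members are named ATERDJ2A, after an Arabidopsis protein of the ER membrane that takes part in protein import. It also holds zinc finger proteins that share only the cysteine-rich part of DnaJ, so the set is called the DnaJ genes here.

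The 12 RNA-seq libraries came from young leaves of field-grown soybean, cultivar AG1631, sampled in 4 seasons to ask how growing among weeds changes gene expression. Every library pooled the newest open leaf, shorter than 2 cm, from 8 or more plants of a single plot at the V3 stage, an early vegetative stage. The 6 weedy plots grew among velvetleaf and buckwheat (about 300 weeds per square metre in 2008, 48 in 2009), flax (600, in 2010) or velvetleaf with sunflower (160, in 2011). The 6 control plots were kept weed-free with S-metolachlor (2008), sethoxydim (2009), glyphosate (2010) or glyphosate, S-metolachlor, sethoxydim and imazethapyr together (2011), although the label dates the 2009 application to the day after the sampling. Weeds and herbicide cannot be told apart. There was 1 plot of each kind in 2008 and in 2009 and 2 in 2010 and in 2011, where replicate 1 had rows 76 cm and replicate 2 rows 18 cm apart. The weeds, the herbicide, the weather and the sampling day all changed with the season, and these cannot be told apart either. For weedy replicate 2 of 2011 the labels report a corrupt file of second reads.

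The J domain of a DnaJ protein makes HSP70 split ATP and so close on its client. Type A proteins carry a J domain, a zinc finger and a client-binding part, type B proteins lack the zinc finger, and type C proteins share little beyond the J domain. Plants have many of them in the cytosol, chloroplasts and mitochondria, and some are made in larger amounts in heat.

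Values are the authors' log2 FPKM, a level per transcript length, which the authors had brought to 1 common set of values in all 12 libraries, from 0 to 13.50 with a median of 3.22. The read depth behind them is unknown. The leaf markers RBCS, LHCB1 and RCA stood high in every library, with library medians of 10.9 to 12.7, 6.47 to 8.73 and 7.65 to 9.78, and none of the 15 leaf marker genes stayed under 1 in all libraries. Genes of the secondary wall cellulose synthases, which mark stem or petiole tissue, had library medians of 2.43 to 2.82 in weedy and 2.68 to 3.62 in control plots (12 genes), and no seed marker gene was in the table. The 2008 libraries stood apart, with 15804 of 30456 genes past the adjusted test against the later seasons. In bulk leaf RNA, fewer cells of a type and less RNA per cell cannot be told apart.

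The mean levels of the DnaJ genes over the 12 libraries ran from 1.00 to 7.50 with a median of 3.17, against 3.21 for all 30456 genes tested. All 193 passed the filter on low values, 35 stood under 2 and 26 at 5 or more. The most abundant were Glyma12g10150 at a mean level of 7.50 and Glyma11g17930 at 7.41. Both are named ATJ2, a cytosolic type A protein with a farnesyl anchor in Arabidopsis. Next came Glyma13g23630 at 6.66, named after its values were seen and matched to BSD2, a chloroplast chaperone of Rubisco assembly. Soybean carries several copies of most of these genes: 68 loci had at least 2 copies, 176 genes in all. The mean levels of the highest and lowest copy of a locus differed by a median of 0.86, and by up to 4.62, at AT1G71000. Reads may have been divided between near-identical copies, so the level of a single copy is uncertain.

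In weedy plots some of the most abundant cytosolic DnaJ genes had lower levels, and a few chloroplast ones had higher levels, but no difference passed the test over all genes. With limma, the season as a covariate and Benjamini-Hochberg adjustment, 0 of 193 DnaJ genes and 0% of all genes passed an adjusted p of 0.05. At an unadjusted p under 0.05, 16 DnaJ genes were lower in weedy plots (8.29%, against 5.39% of all genes) and 3 were higher (1.55%, against 5.42%). The fitted difference lay below 0 for 120 members (62.2%, against 52.1% of all genes), and its median was -0.037 for the members, against -0.0066 for all genes. With weedy and control plots of the same season and number set side by side, 8 members were lower in weedy plots in all 6 pairs (4.15%, against 2.80%) and 4 were higher in all 6 (2.07%, against 2.88%). Leaving out 1 library at a time gave 10 to 17 lower members, with 10 both without control replicate 2 of 2010 and without control replicate 1 of 2011. The higher members numbered 1 to 8, with 8 without weedy replicate 2 of 2010, 5 without control replicate 2 of 2010, and 1 without weedy replicate 1, control replicate 1 or control replicate 2 of 2011.

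The ATJ2 genes, whose Arabidopsis namesake works with cytosolic HSP70, were lower in weedy plots in the most abundant copies. Glyma11g17930 had levels of 6.33, 7.20 and 7.73 in the 6 weedy libraries (lowest, median, highest), against 6.55, 7.92 and 8.10 in the 6 control libraries. The control library of 2008 lay within the weedy range, and the other 5 control libraries lay above all 6 weedy ones. The difference was -0.62 ± 0.14 (log2, SE), and the gene was lower in 6 of 6 pairs, with an adjusted p of 0.144 (limma). Glyma12g10150 had levels of 6.89, 7.28 and 7.79 in weedy plots, against 6.93, 7.86 and 8.06 in control plots. Its groups overlapped through the control libraries of 2008 and 2009 and control replicate 2 of 2011. The difference was -0.45 ± 0.14 with an adjusted p of 0.301 (limma). Another copy, Glyma12g31620, averaged 6.32 ± 0.13 in weedy and 6.56 ± 0.24 in control plots (SD, n = 6 each), and its difference of -0.24 ± 0.09 had an adjusted p of 0.389 (limma). The 6 ATJ2 genes differed among themselves: 5 lay below 0 with a median of -0.24, and Glyma03g27030 lay above it at 0.09 ± 0.17. None of the 6 passed the adjusted test.

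Type B proteins of the HSP40 kind, which also serve cytosolic HSP70, were lower in weedy plots in 2 copies of 1 locus, at an unadjusted p under 0.05. Glyma06g44300, matched to AT2G20560, had levels of 4.42, 4.86 and 5.43 in the 6 weedy libraries (lowest, median, highest), against 4.58, 5.30 and 6.25 in the 6 control libraries. The ranges overlapped, and within each season every weedy plot lay below every control plot. The difference was -0.54 ± 0.12, with an adjusted p of 0.142 (limma), and it was lower in 6 of 6 pairs. All 6 copies of that locus lay below 0, at -0.65 to -0.039. Over the 16 type B genes 12 lay below 0 and 4 above, with a median of -0.069, and 2 were lower at an unadjusted p under 0.05. Glyma08g40670, matched to AT1G10350, lay on the other side at 0.30 ± 0.17, with an adjusted p of 0.566 (limma), and was higher in 6 of 6 pairs.

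**Figure D1:**
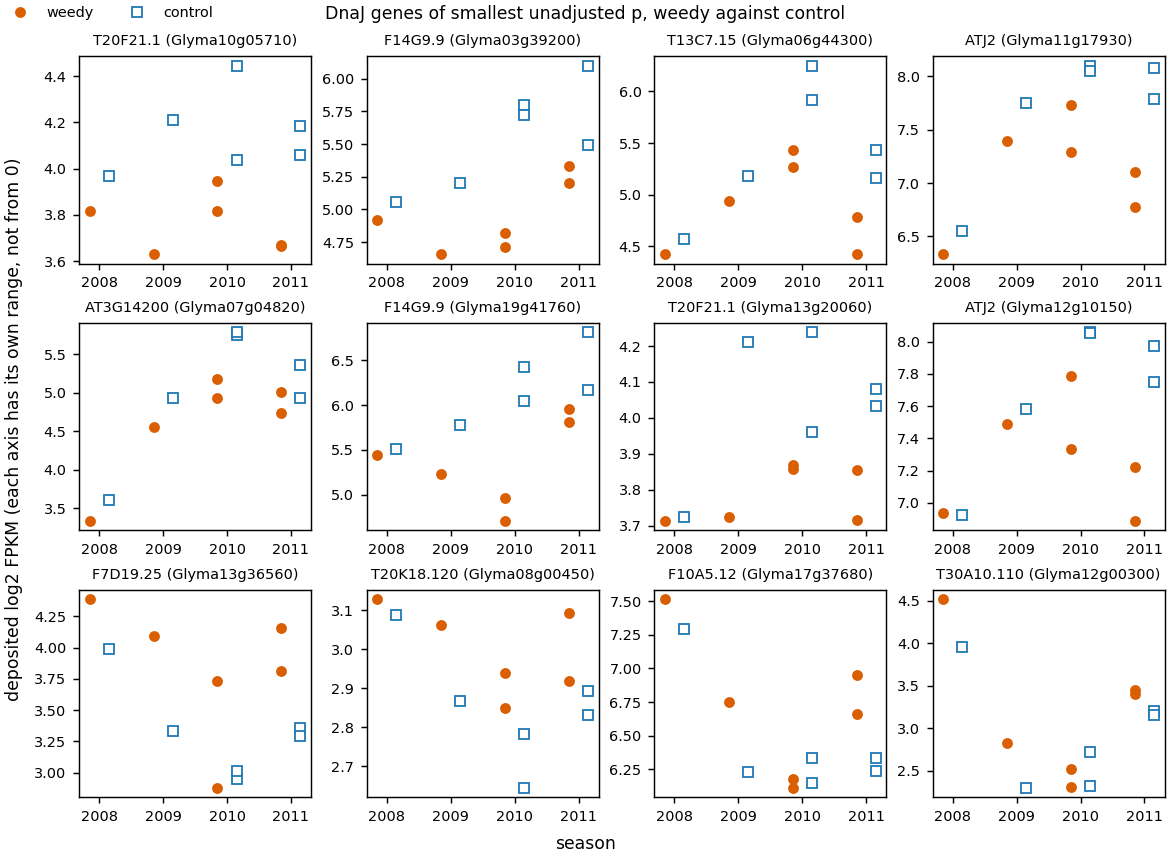
Deposited log2 FPKM (vertical axes, each with its own range) by season for 12 DnaJ genes, with weedy libraries as filled orange circles left of control libraries as open blue squares. The 8 lower genes and 4 of the higher genes of smallest unadjusted p are shown. T20F21.1 Glyma10g05710 is at 3.63 to 3.95 in weedy and 3.97 to 4.45 in control libraries.

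Several of the smallest p-values belonged to DnaJ genes of other kinds. Glyma10g05710 matches AT2G35795, an Arabidopsis relative of the mitochondrial import protein TIM14, whose J domain drives the import motor. It had levels of 3.63, 3.74 and 3.95 in the 6 weedy libraries (lowest, median, highest), against 3.97, 4.12 and 4.45 in the 6 control libraries. All 6 weedy libraries lay below all 6 control libraries, with a difference of -0.39 ± 0.08 and an adjusted p of 0.139 (limma). Its copy Glyma13g20060 had levels of 3.71, 3.79 and 3.87 in weedy plots, against 3.72, 4.06 and 4.24 in control plots. The groups overlapped through the 2008 control library, and the difference of -0.25 ± 0.08 had an adjusted p of 0.275 (limma).

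Both genes matched to AT1G56300, described only as a DnaJ-domain protein, were lower in weedy plots in 6 of 6 pairs. Glyma19g41760 had levels of 4.71, 5.34 and 5.95 in the 6 weedy libraries (lowest, median, highest), against 5.51, 6.10 and 6.81 in the 6 control libraries. The ranges overlapped, and in 2008 the weedy and control libraries were close, at 5.44 in the weedy and 5.51 in the control plot. Its difference was -0.77 ± 0.19 and that of Glyma03g39200 -0.62 ± 0.13, with adjusted p-values of 0.176 and 0.139 (limma). Glyma07g04820, matched to AT3G14200, averaged 4.62 ± 0.67 in weedy and 5.06 ± 0.81 in control plots (SD, n = 6 each). It was lower in 5 of 6 pairs, with overlapping groups, a difference of -0.44 ± 0.11 and an adjusted p of 0.174 (limma).

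Among chloroplast proteins, Glyma13g36560 stood highest on the weedy side. It matches AT2G42750, a small chloroplast J protein in Arabidopsis, and had levels of 2.88, 3.95 and 4.39 in the 6 weedy libraries (lowest, median, highest), against 2.95, 3.31 and 3.99 in the 6 control libraries. The groups overlapped, and the gene was higher in 5 of 6 pairs, with a difference of 0.52 ± 0.14 and an adjusted p of 0.217 (limma). The other 3 copies of the locus differed less, from 0.01 to 0.08. Over the 20 small chloroplast J genes 15 lay above 0 and 5 below, with a median of 0.047, and only Glyma13g36560 had an unadjusted p under 0.05. Glyma17g37680 and Glyma14g40490 match LQY1, a thylakoid zinc finger protein that takes part in photosystem II repair. Their differences were 0.27 ± 0.11 and 0.26 ± 0.16, with adjusted p-values of 0.437 and 0.583 (limma).

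The remaining higher genes differed little. Glyma08g00450 is matched to an auxilin-like protein, whose family uncoats clathrin vesicles with HSP70. It was higher in 6 of 6 pairs by 0.15 ± 0.06, with an adjusted p of 0.431 (limma). Glyma12g00300, matched to CRRJ, a part of the chloroplast NDH complex, differed by 0.23 ± 0.11, Glyma06g11260 by 0.23 ± 0.12 and Glyma15g14700 by 0.11 ± 0.06, all with adjusted p-values above 0.5. The 13 auxilin-like genes lay on both sides, with 7 below 0 and 6 above and a median of -0.034. Both ATERDJ2A genes of the ER stayed close, at -0.02 ± 0.07 for Glyma09g08830 and -0.06 ± 0.06 for Glyma15g20400, with adjusted p-values of 0.952 and 0.782 (limma). Their 5 left-out ER relatives, ERdj3A and ERdj3B, had a median difference of -0.71. All 5 were lower at an unadjusted p under 0.05, against 5.39% of all genes.

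**Figure D2:**
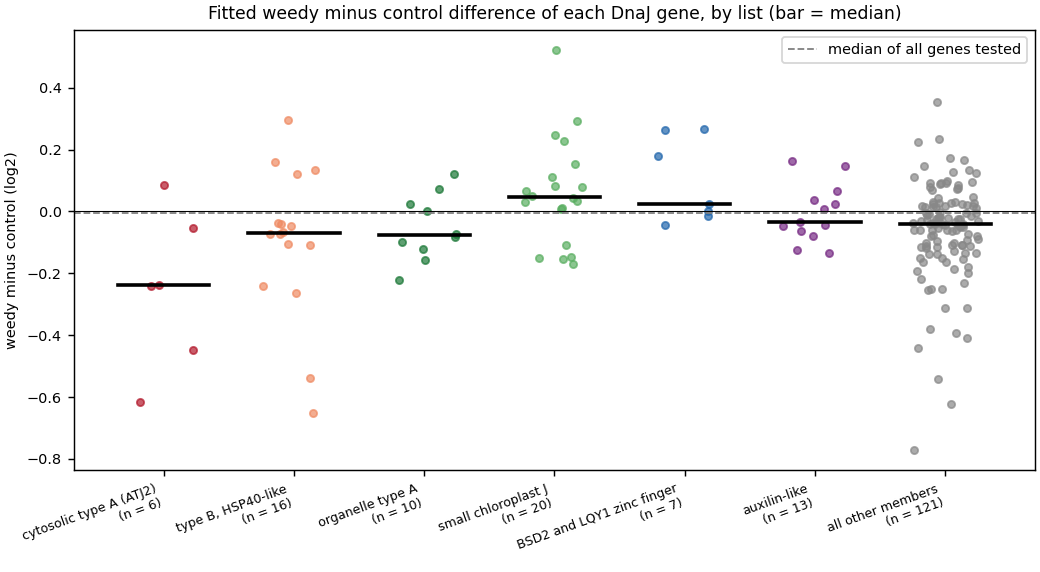
Fitted weedy minus control difference (vertical axis, log2) of each of the 193 DnaJ genes, 1 point per gene, by list, with black bars for list medians and a dashed line for the median of all genes. The cytosolic type A genes have a median of -0.24 and the small chloroplast J genes 0.047, and no gene passed the adjusted test.

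Copies of 1 Arabidopsis locus lay on the same side of 0 in 43 of the 68 loci with copies, all lower in 30 and all higher in 13. The share over all loci with copies was not computed, so whether these counts are unusual is not known. Copies are related sequences and can share reads, so they are not independent.

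The genes of proteins that work with DnaJ proteins were examined alongside. HSP70 is the motor, nucleotide exchange factors reset it, HOP, HIP and CHIP connect it with other machines, and HSP100 proteins pull clumped proteins apart. Of 72 such genes 26 were lower and 7 higher in weedy plots at an unadjusted p under 0.05, against 5.39% and 5.42% of all genes. Of the 72, 0 passed the adjusted test, and the median difference was -0.15, against -0.0066 for all genes. CLPB4 Glyma04g06610, a mitochondrial HSP100, had levels of 3.64, 3.82 and 4.02 in weedy plots, against 3.96, 4.89 and 5.07 in control plots. Its ranges overlapped only in that the 2008 control library, at 3.96, fell within the weedy range, and the difference was -0.85 ± 0.13, with an adjusted p of 0.101 (limma).

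Other partners, named for their small p, were mostly lower by similar amounts. FES1A Glyma03g17870, an exchange factor of cytosolic HSP70, differed by -0.87 ± 0.15 and the HSP110 gene Glyma15g01750 by -0.61 ± 0.09. HSC70-1 Glyma18g52650, at a low mean level of 1.68, differed by -0.79 ± 0.16. Among the mtHSC70-2 genes, the mitochondrial HSP70, Glyma13g32790 differed by -0.61 ± 0.11 and Glyma15g06530 by -0.58 ± 0.11. HSP70 Glyma18g52480, at a mean level of 2.95, lay on the other side at 0.58 ± 0.11. The adjusted p-values of these 6 genes ran from 0.101 to 0.115 (limma). The more abundant HSP70 copies, named after their values were seen, lay below 0. Glyma12g06910 differed by -0.83, Glyma11g14950 by -0.68 and Glyma19g35560 by -0.49, at mean levels of 8.23, 8.77 and 9.28. Over the 16 cytosolic HSP70 genes 9 lay below 0 and 7 above, with a median of -0.29. Further mtHSC70-2 copies, also named after their values were seen, differed less. Glyma07g30290 differed by -0.32 ± 0.15 and Glyma08g06950 by -0.31 ± 0.14, with adjusted p-values of 0.462 and 0.467 (limma). Further HSC70-1 and FES1A copies, likewise named afterwards, varied. HSC70-1 differed by -0.45 in Glyma03g32850 (mean level 9.65), -0.75 in Glyma18g52610, -0.12 in Glyma13g19330 and 0.02 in Glyma02g10320. FES1A Glyma01g25040 differed by -0.36. Of the 9 HOP, HIP and CHIP genes 4 lay below 0 and 5 above, with a median of 0.02.

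Within 2010, when the weed was flax, the DnaJ genes of smallest p on the lower side were the AT1G56300 matches, a type B gene and Glyma07g04820. None of the 193 passed the adjusted test in 2010 (limma, 0% of all genes), 21 were lower at an unadjusted p under 0.05 (10.9%, against 4.45% of all genes) and 5 were higher (2.59%, against 4.19%). Glyma19g41760 had 4.96 and 4.71 in weedy plots, against 6.42 and 6.04 in control plots, a difference of -1.40 ± 0.24 with an adjusted p of 0.522 (limma). Glyma03g39200 had 4.71 and 4.82 in weedy plots, against 5.80 and 5.72 in control plots, a difference of -0.99 ± 0.20. In both genes the weedy libraries lay below the control libraries with a gap wider than the spread within either group. Glyma06g44300 differed by -0.73 ± 0.18 and Glyma07g04820 by -0.72 ± 0.18. On the higher side stood Glyma0509s00200 at 0.69 ± 0.22 and Glyma02g06160, an auxilin-like gene, at 0.49 ± 0.19. Glyma01g43690, with a tetratricopeptide repeat, differed by 0.38 ± 0.13 and the type B gene Glyma15g08450 by 0.35 ± 0.13.

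Weedy replicate 1 of 2010 decided whether any gene passed in that season. Without it 2 DnaJ genes and 268 genes in all passed, namely Glyma04g05810, matched to the NDH subunit NDHU, at -1.35 ± 0.18 and ATJ2 Glyma03g27030 at 0.94 ± 0.12, and 19 members were higher at an unadjusted p under 0.05. That leaves 1 weedy library, assumed to vary like the other groups. The count of lower members fell to 9 without weedy replicate 2 and to 5 without control replicate 2 of 2010, and that of higher members to 1 without weedy replicate 2 and to 2 without either control replicate of that season.

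Within 2011, when the weeds were velvetleaf and sunflower, no DnaJ gene passed the adjusted test (limma, 0% of all genes). At an unadjusted p under 0.05, 9 were lower and 9 higher in weedy plots (4.66% each, below the 6.0% and 6.01% of all genes). The differences of the 6 cytosolic ATJ2 genes all lay below 0, with a median of -0.38, and 2 of them had an unadjusted p under 0.05. ATJ2 Glyma11g17930 had 6.77 and 7.11 in weedy plots, against 8.08 and 7.79 in control plots, a difference of -0.996 ± 0.20 with an adjusted p of 0.203 (limma). Glyma12g10150 had 6.89 and 7.22 in weedy plots, against 7.98 and 7.75 in control plots, a difference of -0.81 ± 0.20. In both copies the weedy libraries lay below the control libraries.

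The lowest DnaJ difference of 2011 belonged to Glyma13g27090, matched to AT4G39150, with 2.61 and 1.53 in weedy plots, against 4.13 and 3.59 in control plots. The weedy libraries lay apart from each other by more than 1, and the difference was -1.79 ± 0.37 with an adjusted p of 0.203 (limma). Without weedy replicate 2, the library with the corrupt read file, it was -1.25. The LQY1 match Glyma14g40490 had 5.91 and 6.21 in weedy plots, against 5.44 and 5.25 in control plots, a difference of 0.72 ± 0.16. Glyma17g37680 differed by 0.52 ± 0.15, and Glyma13g44310, matched to the chloroplast type A protein DJA7, by 0.41 ± 0.13. Glyma06g05820, matched to NDHU, had 3.49 and 4.06 in weedy plots, against 2.91 and 2.78 in control plots, a difference of 0.93 ± 0.29. In these 4 genes each weedy value exceeded each control value of the season, with adjusted p-values of 0.216 to 0.290 (limma). The count of 9 higher members was 5 without either control replicate of 2010, which changes only the shared spread, and 4 without weedy or control replicate 2 of 2011.

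The weedy minus control difference itself was compared between 2011 and 2010. No DnaJ gene passed the adjusted test of that change (limma, 0% of all genes), and at an unadjusted p under 0.05 it was higher in 2011 for 14 members (7.25%, against 7.07% of all genes) and lower for 9 (4.66%, against 6.66%). Of the 14, 10 came from the 37 genes of the organelle type A, small chloroplast J and zinc finger lists. The lists were chosen with earlier results of these data known and were joined for this count. The 2 plastid division genes, left out of them, had medians of -0.21 in 2010 and -0.0035 in 2011. In the joined lists 32 of 37 genes lay above 0 in 2011, against 14236 of all 30456 genes. In 2010, 29 of 37 lay below 0, against 14518 of all genes, and 26 of the 37 did both. The swing was larger between the replicate 2 plots. These had rows 18 cm apart in both seasons, and plot and row spacing cannot be told apart. The median difference of the 37 genes was -0.069 in replicate 1 and -0.49 in replicate 2 of 2010, and 0.016 and 0.36 in 2011. Weedy replicate 2 of 2011 is the library with the corrupt read file. Of all members 63 were higher in 2011 and lower in 2010 (32.6%, against 26.6% of all genes), 51 lower in both (26.4%, against 21%) and 33 higher in both (17.1%, against 20.1%). Leaf markers moved the same way: all 15 RBCS, LHCB1 and RCA genes lay above 0 in 2011, with a median of 1.10, and below 0 in 2010, with a median of -0.44. The cellulose synthase genes had medians of -0.73 in 2011 and 0.08 in 2010. Their part in the result was not tested.

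**Figure D3:**
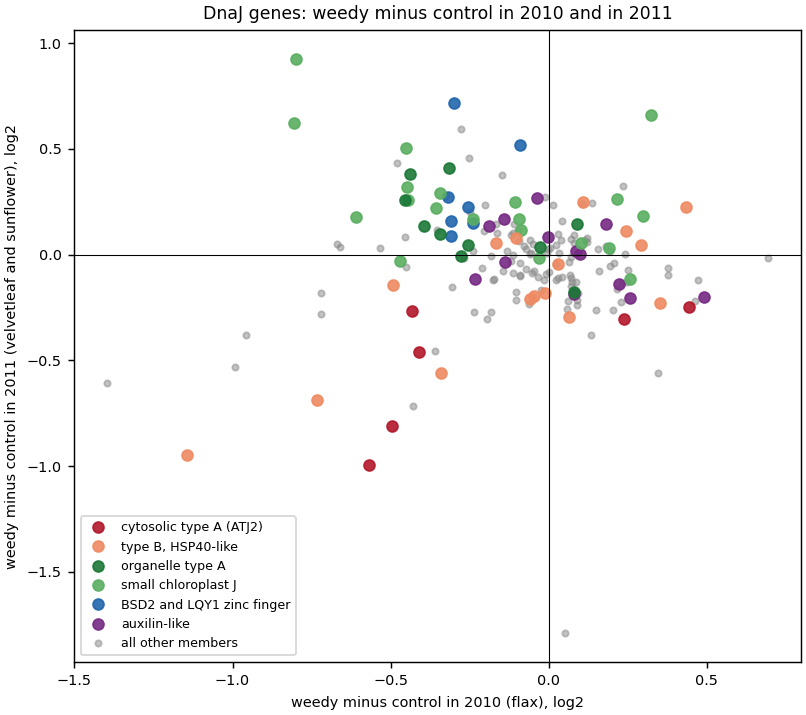
Weedy minus control difference (log2) in 2010 on the horizontal and in 2011 on the vertical axis for the 193 DnaJ genes, 1 point per gene, coloured by list. Of the 37 organelle type A, small chloroplast J and zinc finger genes, 26 lie at the upper left, while ATJ2 Glyma11g17930 lies at -0.57 and -0.996.

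Glyma14g40490 and Glyma06g05820 had the smallest p-values on the higher side. The change was 1.72 ± 0.41 for Glyma06g05820, whose levels in 2010 were 1.80 and 0.99 in weedy plots, against 2.04 and 2.35 in control plots. It was 1.02 ± 0.22 for Glyma14g40490, with 5.40 and 5.23 in weedy plots, against 5.51 and 5.73 in control plots, and 0.73 ± 0.18 for Glyma13g44310, each with an adjusted p of 0.279 (limma). Glyma15g04040, matched to a small chloroplast J protein, changed by 0.77 ± 0.20. On the other side were Glyma13g27090 at -1.84 ± 0.53, Glyma11g10890 at -0.91 ± 0.25, Glyma15g08450 at -0.58 ± 0.18 and Glyma03g40230 at -0.45 ± 0.15. Without weedy replicate 1 of 2010, 5 DnaJ genes and 273 genes in all passed: Glyma04g05810 (1.97), Glyma06g05820 (2.13), Glyma15g00950 (1.19), Glyma04g08240 (0.99) and ATJ2 Glyma03g27030 (-1.19), with Glyma04g08240 named after its values were seen. Leaving out 1 library at a time gave 6 to 26 higher members, with 26 without weedy replicate 1 of 2010, 8 without control replicate 2 of 2010 or weedy replicate 2 of 2011 and 6 without control replicate 2 of 2011. It gave 2 to 23 lower members, with 23 without weedy replicate 1, 5 without weedy replicate 2, 4 without control replicate 1 and 3 without control replicate 2 of 2010, and 4 without weedy replicate 1 and 2 without control replicate 2 of 2011.

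The authors' own Cuffdiff results gave more calls. The authors' deposited table marks 4 DnaJ genes with a label of genes lower in several seasons (2.07%, against 0.273% of all genes) and 0 with the label of higher ones (0%, against 0.0690%). The labelled genes in the authors' deposited table are Glyma11g17930, Glyma06g44300 and Glyma19g41760 for 4 seasons and the type B gene Glyma15g08420 for 3. At a q under 0.05 the authors' deposited table calls 8 DnaJ genes lower in 2010 (4.15%, against 1.13%) and 0 higher (0%, against 1.33%). For 2011 the authors' deposited table calls 7 lower (3.63%, against 3.18%) and 8 higher (4.15%, against 4.49%), and the 4 labelled genes are called in both years. For Glyma07g04820 and its copy Glyma16g01400 the authors' deposited table gives log2 ratios of -0.72 each in 2010, with q values listed as 0. For the LQY1 matches Glyma14g40490 and Glyma17g37680 the authors' deposited table gives q values of 0.00130 and 0.0223 in 2011.

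More DnaJ genes differed between seasons than between weedy and control plots. By limma's F test 114 of 193 differed between seasons at an adjusted p under 0.05 (59.1%, against 67.1% of all genes), and without 2008 the count was 53. The season means of a member spanned a median of 0.57, against 0.65 for all genes. The highest season mean was that of 2008 for 77 members (39.9%, against 34.2% of all genes), of 2009 for 20 (10.4%, against 15.9%), of 2010 for 64 (33.2%, against 29.1%) and of 2011 for 32 (16.6%, against 20.8%), the same order of seasons as over all genes.

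Many chloroplast DnaJ genes were higher in 2008 than later, and several cytosolic ones were lower. In 2008 against the 3 later seasons 55 members rose (28.5%, against 24.6% of all genes) and 38 fell (19.7%, against 27.3%), by limma at an adjusted p under 0.05. Of the 20 small chloroplast J genes 12 rose and 1 fell (median 0.69), of the 10 organelle type A genes 7 rose and 0 fell (median 0.79), and of the 7 zinc finger genes 6 rose and 0 fell (median 1.00). Of the 6 ATJ2 genes 4 fell and 0 rose (median -0.68), and of the 16 type B genes 6 fell and 1 rose (median -0.17). The leaf markers also stood higher in 2008, with 10 of 15 past the test and a median of 1.10, and their part in the result was not tested. The season rests on 1 weedy and 1 control library, and without the weedy one 56 members passed, without the control one 58.

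NDHU match Glyma06g05820 had 5.36 in the weedy and 5.06 in the control plot of 2008, against 0.99 to 4.06 in the 10 later libraries, so both 2008 libraries stood above all others. It rose by 2.79 ± 0.38, with an adjusted p of 0.000219 (limma). Its copy Glyma04g05810 had 6.67 in the weedy and 6.56 in the control plot of 2008, against 3.35 to 5.78 later, and rose by 1.93 ± 0.34. CRRJ match Glyma12g00300 had 4.52 in the weedy and 3.96 in the control plot of 2008, against 2.30 to 3.44 later. Both 2008 libraries were again the highest, and the rise of 1.46 ± 0.15 had an adjusted p of 4.92e-05 (limma).

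Other chloroplast genes followed. Glyma20g00450 and Glyma07g31740, both matched to the small chloroplast J protein AT5G23240, rose by 1.29 ± 0.15 and 1.05 ± 0.12, and the LQY1 match Glyma14g40490 rose by 1.54 ± 0.21. Glyma05g31080, matched to the chloroplast type A protein DJA6, rose by 1.22 ± 0.17. Glyma03g39790, matched to AT3G05345, rose by 1.34 ± 0.15. Of these the 2008 libraries lay above all later ones in every case.

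**Figure D4:**
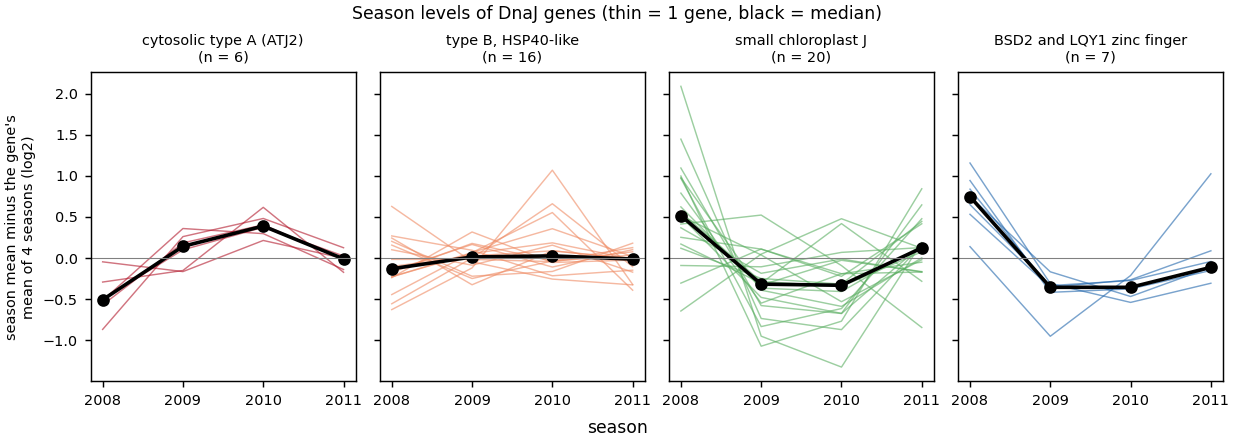
Season mean minus the gene's mean over 4 seasons (vertical axis, log2) for 4 lists of DnaJ genes by season, with a thin line per gene and black points for the list median. The ATJ2 genes are lowest in 2008 by the median, and the small chloroplast J and zinc finger genes are highest.

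Among the genes that fell in 2008, Glyma07g04820 had 3.34 in the weedy and 3.60 in the control plot, against 4.55 to 5.79 in the later libraries. It fell by 1.59 ± 0.15, with an adjusted p of 2.50e-05 (limma), and no later library was as low. Glyma19g32480, matched to AT3G12170, differed by -1.66 ± 0.22, Glyma20g37410 by -1.15 ± 0.14 and Glyma10g29960 by -1.07 ± 0.11, all past the test. ATJ2 Glyma11g17930 had 6.33 in the weedy and 6.55 in the control plot, against 6.77 to 8.10 later, and differed by -1.16 ± 0.19 with an adjusted p of 0.0006 (limma).

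Between 2011 and 2010, the seasons with 4 libraries each, 38 members rose (19.7%, against 20.5% of all genes) and 29 fell (15%, against 20.7%) by limma at an adjusted p under 0.05. Of the 20 small chloroplast J genes 11 rose and 1 fell. The leaf markers also stood higher in 2011, with 11 of 15 past the test and a median level of 8.96 in 2011, against 7.75 in 2010, and their part in the result was not tested. Glyma09g42020, matched to AT5G23240, had 3.65 to 4.38 in 2011, against 1.96 to 2.76 in 2010. No library of 2010 reached those of 2011, and the rise of 1.61 ± 0.19 had an adjusted p of 0.000313 (limma). Glyma12g15560, a copy of AT2G42750, rose by 1.32 ± 0.18 and Glyma20g00450 by 1.09 ± 0.13. Copies of 1 locus could move apart: of the AT1G71000 copies Glyma19g40110 rose by 0.98 ± 0.14 and Glyma03g37490 differed by -1.74 ± 0.25, both past the test. The type B genes Glyma12g13500 and Glyma06g44300, copies of AT2G20560, fell by 1.39 and 0.77, and Glyma11g03520 fell by 0.80. Without weedy replicate 2 of 2011, 38 members passed in place of 67.

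Row spacing moved no DnaJ gene past the adjusted test (limma, 0% of all genes). In rows 18 cm apart, compared with 76 cm, 7 members were lower (3.63%, against 5.16% of all genes) and 4 higher (2.07%, against 2.73%) at an unadjusted p under 0.05. The smallest p belonged to Glyma07g30030 at -0.47 ± 0.13, and the J20 gene Glyma05g24740, whose Arabidopsis namesake delivers an isoprenoid enzyme to chloroplast HSP70, differed by -0.81 ± 0.24, at a low level of 1.11. On the higher side stood the AT1G10350 copies Glyma08g40670 at 0.48 ± 0.17 and Glyma18g16720 at 0.29 ± 0.12. Leaving out 1 library at a time gave 4 to 8 lower members, with 4 without either control replicate of 2011. The higher ones numbered 1 to 12, with 2 without either control replicate of 2010, 1 without either weedy replicate of 2011, and 12 and 11 without control replicate 1 and control replicate 2 of 2011.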

How the data were processed

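RNA-seq of 12 leaf libraries (6 weedy, 6 control) was used as 1 deposited table. Per the labels' protocols, 4000 ng of RNA per library went into the Illumina TruSeq RNA kit and paired-end sequencing on a HiSeq2000; strand is not stated, so antisense and overlapping genes cannot be separated. Tools named in the submitters' processing notes are TopHat 1.0, Cufflinks 1.0 and Cuffdiff 1.0. Per the file headers, the authors deposited log2 FPKM values annotated with Phytozome 9.0. Sorted values were identical in all libraries (10 zeros each), by a scaling that the sources used here do not describe and that hides a change shared by most genes. The authors also deposited p-values and q-values from Cuffdiff for 2010 and 2011, per the file headers. The genome build and the sequencing depth are not given in the sources used here, so no counting intervals were computed.

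Entries sharing an identifier were left out (39 entries, 19 identifiers), and a gene was tested (30456 in all) if 3 or more libraries reached a log2 value of 1. The deposited log2 values went into limma 3.58.1 (R 4.3.3, statmod 1.5.0; eBayes, trend and robust options on), two-sided, with Benjamini-Hochberg adjustment over all genes and a threshold of 0.05. Weeds and season used all 12 libraries with each other as covariate; 2010, 2011, their difference and row spacing used the 8 libraries of those seasons. The labels give each replicate as a plot, and p-values rest only on the spread among these plots. In 2010 and 2011 that spread includes row spacing, for which the weed fits held no term. Over all 12 libraries it also includes any change of the weedy minus control difference between seasons. Replicate numbers were not taken as pairing the plots in the main fits, and values given by pair are descriptive. Which spacing belongs to which column was inferred from the column names. The members, role lists and partner lists, joined by the Arabidopsis locus, were chosen with earlier results of these data known. The text names the 8 members of smallest p on each side for weedy against control, 4 on each side for other comparisons (6 for the F test), members of the type A, small chloroplast and ER lists, members with the authors' calls, and up to 12 partners. No identifier matched the RefSeq gene table (0 matched). Checks on simulated data preceded the fits. Alternatives tried were 1 added before the log, no filter, a mean of at least 2, plain eBayes, each library or season left out, a replicate block, no season term and common medians.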

Additional observations from a re-analysis of the deposited data

Results flagged for a closer look

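In 48 sets of 6 values from named DnaJ genes, 6 held a value far from the other 5. The rule flags about 1 in 20 sets of independent values from 1 group. These sets mix 4 seasons and include copies of 1 locus, so that rate does not hold for them. In 4 of the 6 flagged sets the value came from a 2008 library. ATJ2 Glyma11g17930 was at 6.55 in the 2008 control library, against 7.75 to 8.10 in the other control libraries. Glyma07g04820 was at 3.34 in the 2008 weedy library, against 4.55 to 5.18 in the other weedy ones. The LQY1 matches stood apart upward in the 2008 control library, Glyma17g37680 at 7.30 against 6.14 to 6.33 and Glyma14g40490 at 7.05 against 5.25 to 5.73. The weedy minus control difference of Glyma12g00300 was -0.42 between the replicate 2 plots of 2010, against 0.20 to 0.56 in the other pairs. That of Glyma15g14700 was -0.061 between the replicate 1 plots of 2011, against 0.099 to 0.19 in the others.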

How the results depend on the processing

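Under every alternative tried, 0 DnaJ genes passed for weedy against control over all seasons, within 2011 or for row spacing (limma). For weedy against control, members at an unadjusted p under 0.05 numbered 5 lower and 0 higher with no season term, and 13 higher without season 2010; 24 genes of the whole table passed without season 2008. The F test of seasons without 2008, chosen after seeing the data, called 53 members and 11265 genes. For row spacing a mean log2 of at least 2 left 4 lower members.

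Leaving out 1 library at a time gave, for weedy against control, 0 to 24 genes past the test (24 without either 2008 library, 6 without weedy replicate 1 of 2010), 10 to 17 lower and 1 to 8 higher members. For 2010 it gave 0 to 2 members and 0 to 268 genes past the test, 5 to 30 lower and 1 to 19 higher, and for 2011 4 to 13 higher. For the change between these seasons it gave 0 to 5 members and 0 to 273 genes past the test, 2 to 23 lower and 6 to 26 higher. The season calls ran from 38 to 64 members for 2011 against 2010, and from 56 to 93 members and 9625 to 16473 genes for 2008. For spacing it gave 4 to 8 lower and 1 to 12 higher. The calls without weedy replicate 1 of 2010 included Glyma06g05820 for the change between seasons, at 2.13 with an adjusted p of 0.0492, against 0.0492 to 0.765 over all its alternatives. No fitted difference changed sign among the members named for the smallest p in each comparison. Other genes named in the text were not part of that check. The balance of the spacing counts turned, from 7 lower and 4 higher members with all libraries to 4 and 12 without control replicate 1 of 2011 and 4 and 11 without control replicate 2. The median over members changed sign for 2011, at 0.00033 with 1 added before the log and -0.0033 without, and for season 2011 against 2010, at 0.0094 with a mean log2 of at least 2 and -0.019 without that limit. The causes of these shifts were not tested.

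Same-numbered plots of a season share a row spacing. Their deviations over all genes correlated at -0.048 in 2010 and 0.048 in 2011, and the main fits did not take the numbers as pairing. With the replicate block 0 DnaJ genes passed in any weed comparison, and at an unadjusted p under 0.05 there were 11 lower and 3 higher over all seasons, 15 and 4 in 2010, 9 and 9 in 2011, and 7 and 14 for the change between them. Depth is unknown, so low values near 0 may be floored estimates.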
